A study of Pinus pinaster with 18 samples.

Results

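RNA of embryos of maritime pine (*Pinus pinaster*) was compared between the early-cotyledonary (EC) and the pre-cotyledonary (PC) zygotic stage, each with 3 libraries out of 18 in the series. Both groups were zygotic embryos excised from developing seeds of 1 seed orchard in the same July, PC earlier in the month and EC later, so stage and collection time cannot be told apart, and no treatment, mutation or transgene separates them. The compared transcripts were chosen by level alone: those above 2 CPM (counts relative to the library total) in at least 3 of these 6 libraries, which took 21036 of the 287424 transcripts in the table, out of 25649 with any count in the 6. At the edge of this rule, 727 transcripts passed in exactly 3 libraries, with a median level of 2.19 CPM, and 592 missed it with exactly 2, with a median of 1.74 CPM. Besides them, the somatic stages ES1 (4 to 6 weeks of maturation) and ES2 (6 to 10 weeks) of the embryogenic line PN519, 3 libraries each, served to set this step beside a somatic one. PN519 is 1 line from 1 controlled cross, so those values are of 1 genotype, and its embryos matured in darkness on a medium with abscisic acid and raised sucrose and gellan gum.

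At the pre-cotyledonary stage a conifer embryo is a compact dome of dividing cells on a suspensor, and at the early-cotyledonary stage a ring of cotyledon primordia forms around the shoot apex. In seed plants this phase of development joins patterning, by boundary and meristem genes, with the start of maturation, when embryos lay down storage proteins, oil bodies and the late embryogenesis abundant (LEA) proteins that protect drying tissue. The embryo grows inside the megagametophyte, the storage tissue of the conifer seed.

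Total counts lay between 24726220 and 38189316 in the 6 libraries, and replicate libraries of a stage differed beyond counting noise (chi-square statistic over degrees of freedom between 22.5 and 54.4). The methods name technical as well as biological replication, and no label tells the one from the other, so p-values measure the spread between these libraries, which may be technical. The first principal component of log CPM held 51.3% of the variance and separated EC from PC. The second, with 24.4%, did not follow the stage: EC library 1 (41.7) and PC library 2 (40.2) lay at one end and PC library 3 (-42.9) at the other. Values without EC library 1 and PC library 2 together are therefore given beside calls that they change. Maturation transcripts, not tested for being particular to the embryo, were present in both stages. The 48 tested LEA transcripts of 65 summed to 3981 to 4384 CPM in PC libraries and 4709 to 5227 CPM in EC. The 16 tested storage and oil body transcripts of 17 summed to 220.1 to 312.9 CPM in PC and 359.6 to 551.9 CPM in EC. The sources hold no marker list for megagametophyte or suspensor, so the part of other tissues was not tested, and fewer cells of a type cannot be told from less RNA per cell.

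More transcripts were called higher than lower in EC. A transcript is called when its adjusted p (edgeR's quasi-likelihood F-test, Benjamini-Hochberg) is under 0.05 and its level differs by more than 2-fold. Called higher in EC were 1082 transcripts (5.14% of those tested) and called lower 520 (2.47%), or 7.62% in all. The median log2 fold change over all 21036 was -0.015. At an adjusted p under 0.05 and any fold, 2179 transcripts (10.4%) were higher and 1778 (8.45%) lower in EC, and the 3 EC libraries lay wholly above the 3 PC libraries in 4232 transcripts (20.1%) and wholly below them in 4172 (19.8%), so the excess of higher transcripts was mostly one of large changes: 191 of the higher and 76 of the lower calls exceeded 4-fold. Of all tested transcripts 166 passed the level limit in PC libraries only and 258 in EC libraries only, which sets their direction, and 122 of the 166 were called lower. How many of the 258 were called higher was not counted, so the part the limit played in the size of the excess is not known. With all 25649 transcripts that had any count in the 6 libraries tested, 1196 were called higher and 630 lower. An excess of higher calls was thus also seen without the limit. Scaled by library size alone, the calls split into 911 higher and 667 lower. Without PC library 1 the calls fell to 710 higher and 322 lower, without PC library 2 the lower calls were 342, and without both EC library 1 and PC library 2 there were 518 higher and 210 lower.

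**Figure D1:**
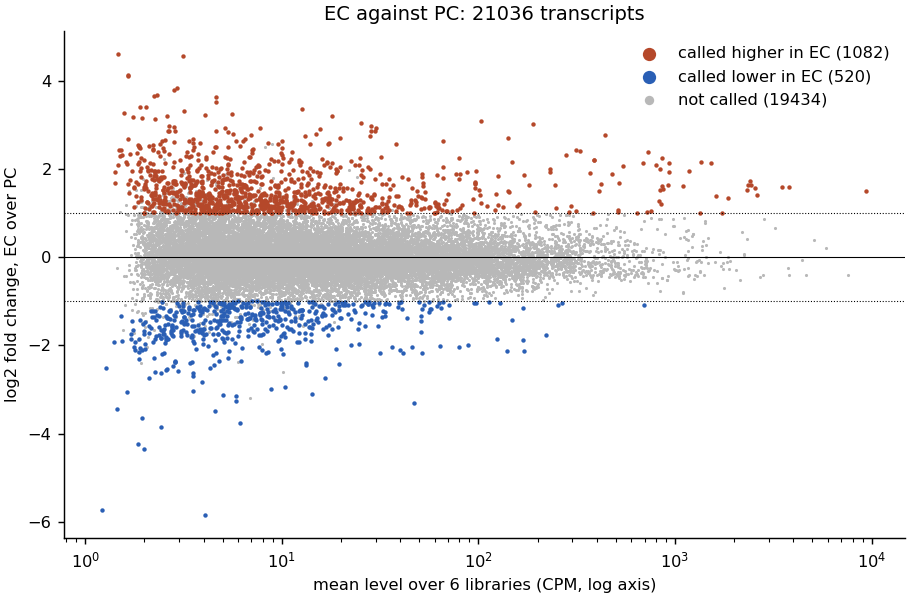
Log2 fold change of EC over PC (vertical) against the mean level over the 6 libraries in CPM (horizontal, log axis) for 21036 transcripts, each a point. Red points are the 1082 transcripts called higher in EC, blue the 520 called lower, grey the rest, and dotted lines mark 2-fold. Above 1000 CPM 17 transcripts are called higher and 0 lower.

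Abundant transcripts were called less often than all transcripts, and more often higher than lower. At a mean level of at least 100 CPM, 75 of 2025 transcripts were called higher (3.70%) and 12 lower (0.593%), against 5.14% and 2.47% of all, and at 1000 CPM or more 17 were higher and 0 lower. These 17 summed to 73650, 48390 and 70990 CPM in EC libraries 1 to 3, against 20730, 21010 and 23970 CPM in PC. All EC sums exceeded all PC sums, and EC library 2 was the lowest of EC. None of the 17 has a protein name in the sources used here, and 8 of them carry neighbouring identifiers between ppt_135350 and ppt_135365, a run in which all 16 tested transcripts were called higher. Others of the 17 also have close identifiers, as ppt_120443, ppt_120450 and ppt_120452, and ppt_153086 and ppt_153091. Whether the transcripts of a run are variants of 1 gene was not tested, so these counts are of transcripts and not of genes. The most abundant, ppt_135361, singled out after its values were seen, was at 17160, 9757 and 14920 CPM in EC, against 4545, 5420 and 4652 CPM in PC (log2 fold change 1.52 ± 0.21, adjusted p = 0.0051).

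Protein names were at hand for part of the table. They come from the study's supplementary tables of hub genes and of a few co-expression modules, which were built on these same libraries, so the directions of named groups are not independent evidence of the modules' patterns. For the same reason list members were in part preselected for shared change. List shares set beside those of all transcripts, most of them unnamed, are therefore descriptions and no test of enrichment. Of 1214 tested transcripts with an informative name, 77 were called higher and 57 lower, against 5.14% and 2.47% of all transcripts. Together 11.0% of them were called, against 7.62% of all. Names are matches to proteins, mostly of other species, and transcripts sharing a name may be variants of 1 gene between which reads were split. Part of the named transcripts below were chosen for a lack of overlap between the stages, and others for a low p. Their separation was therefore partly set by the choice. Among 128 names with at least 3 tested transcripts, all transcripts of a name moved the same way at an adjusted p under 0.05 for 8 names in the higher and 19 in the lower direction, and for 1 name some moved each way.

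Many genes of DNA replication, cell division and chromatin were lower in EC, by less than 2-fold. Of 66 replication transcripts tested of 68 in the list, 40 were lower at an adjusted p under 0.05 and 0 higher, against 8.45% lower among all transcripts. The 66 carried 30 protein names. The list's median log2 fold change was -0.61 and the lowest -0.94, so 0 passed the 2-fold limit. The summed level of the list was 2916, 3345 and 3351 CPM in EC libraries 1 to 3, against 5205, 5128 and 4719 CPM in PC, with a gap between the groups wider than the spread within either. The large subunit of DNA primase (ppt_47202), which starts new DNA strands, was at 63.1, 63.7 and 63.2 CPM in EC, against 122, 122 and 109 CPM in PC (log2 fold change -0.89 ± 0.09, adjusted p = 0.0026). Ribonucleoside-diphosphate reductase (ppt_70383), which makes deoxynucleotides, was at 61.6, 69.2 and 67.3 CPM in EC, against 114, 116 and 114 CPM in PC (log2 fold change -0.80 ± 0.09, adjusted p = 0.0029). MCM3 (ppt_138846), a subunit of the replicative helicase, was at 96.5, 108 and 104 CPM in EC, against 178, 184 and 170.5 CPM in PC (log2 fold change -0.78 ± 0.09, adjusted p = 0.0031). In each of these 3 genes the EC libraries lay closely together below every PC library. Leaving out any 1 library left 29 to 40 lower replication transcripts, and leaving out EC library 1 with PC library 2 left 28.

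The cell cycle and mitosis list had 33 of 62 tested transcripts lower and 0 higher at an adjusted p under 0.05, with a median of -0.53. The 62 carried 32 protein names. All 7 transcripts matching Cyclin-A1-1, a partner of mitotic kinases, were lower, and their sum was 111, 126 and 126 CPM in EC, against 225, 194 and 188.5 CPM in PC. A D-type cyclin (ppt_124332), which acts at entry into the cycle, was at 18.6, 17.8 and 18.8 CPM in EC, against 36.2, 40.2 and 28.5 CPM in PC (log2 fold change -0.93 ± 0.15, adjusted p = 0.0069). An EB1C protein (ppt_256775), which binds the growing ends of microtubules, was at 50.7, 59.6 and 49.96 CPM in EC, against 83.6, 90.6 and 92.5 CPM in PC (log2 fold change -0.73 ± 0.11, adjusted p = 0.0055). All 6 tested transcripts of its name had values below 0, and 2 passed at an adjusted p under 0.05. The EC libraries were below all PC libraries for these too. The count of lower transcripts in this list fell with fewer libraries: it was 14 without PC library 1, 17 without PC library 2, 21 without PC library 3 and 10 without both EC library 1 and PC library 2.

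Of 59 chromatin transcripts tested, with 30 protein names, 26 were lower and 2 higher at an adjusted p under 0.05 (median -0.49). The histone chaperone ASF1B (ppt_157417), which hands histones to newly made DNA, was at 90.1, 98.5 and 107 CPM in EC, against 175, 174 and 169 CPM in PC (log2 fold change -0.81 ± 0.09, adjusted p = 0.0034). The remodeller DDM1 (ppt_91301), needed for DNA methylation in Arabidopsis, was at 61.9, 62.4 and 60.4 CPM in EC, against 86.98, 92.7 and 83.3 CPM in PC (log2 fold change -0.51 ± 0.09, adjusted p = 0.0087). All 3 transcripts matched to HMGB7 of soybean were lower, as ppt_230049 at 15.04, 16.6 and 13.99 CPM in EC, against 29.1, 31.9 and 23.6 CPM in PC (log2 fold change -0.89 ± 0.15, adjusted p = 0.0081). These levels too did not overlap between the stages. The list's lower count was 11 without PC library 1, 16 without PC library 2 and 6 without EC library 1 and PC library 2, and the 2 higher ones became 0 without EC library 2, EC library 3 or PC library 1 and 1 without PC library 2. Of 5 tested transcripts matching CMT, a plant DNA methyltransferase, 4 were lower at an adjusted p under 0.05 (median of the 5, -0.56). The remaining one, ppt_199487, also abundant, was at 915, 902 and 904 CPM in EC, against 829, 819 and 868 CPM in PC and did not pass the test (log2 fold change 0.11 ± 0.09, adjusted p = 0.41).

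**Figure D2:**
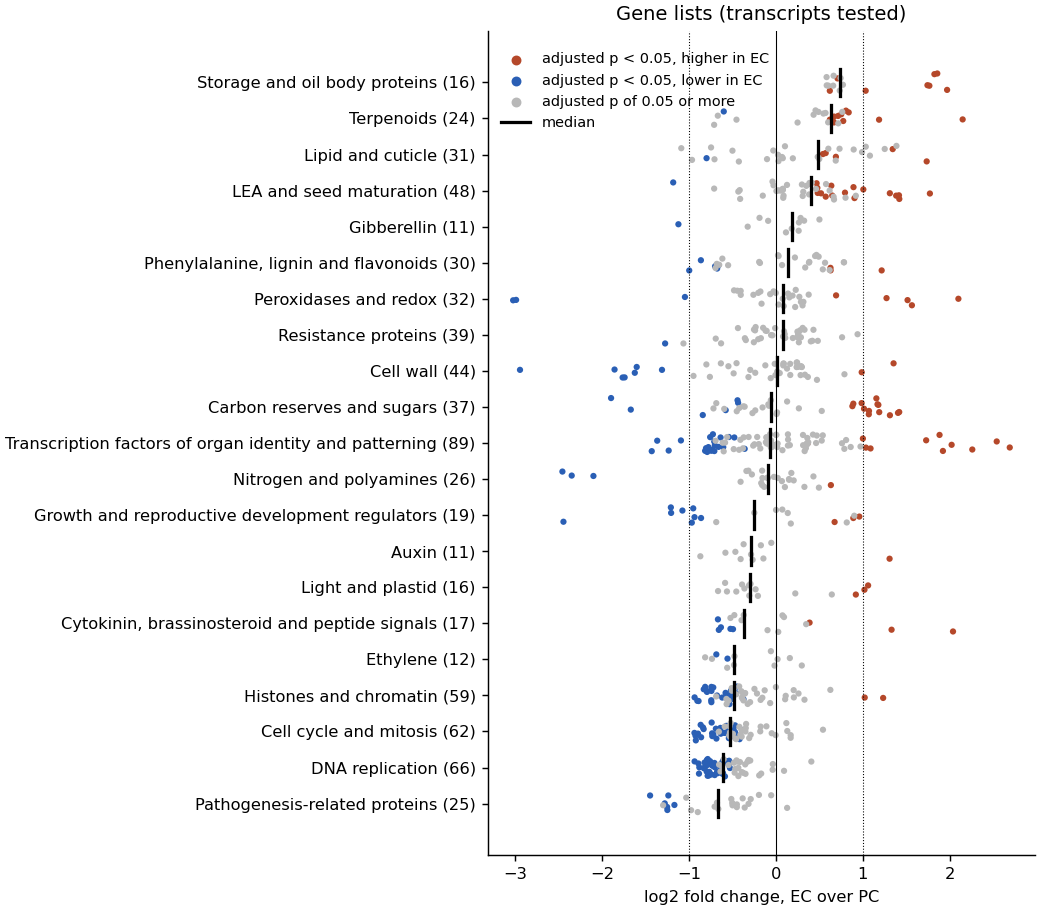
Log2 fold change of EC over PC (horizontal) for each tested transcript of 21 gene lists (rows, with the number of transcripts tested), ordered by their median (black bar). Points are red or blue where the adjusted p is under 0.05 (higher or lower in EC) and grey otherwise. The replication, cell cycle and chromatin lists have medians of -0.61, -0.53 and -0.49 with most points between 0 and -1, while storage and oil body proteins have a median of 0.74.

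Patterning transcription factors moved both ways. Of 89 tested transcripts in the list of organ identity and patterning factors, 10 were called higher and 4 lower, against 5.14% and 2.47% of all transcripts. Among the larger rises were transcripts matching LHW, a bHLH factor that in Arabidopsis initiates vascular tissue. All 4 LHW-like transcripts were called higher, with a summed level of 37.97, 33.04 and 49.9 CPM in EC libraries 1 to 3, against 8.85, 8.95 and 11.9 CPM in PC. Of them, ppt_219804 was at 5.01, 5.88 and 7.59 CPM in EC, against 0.871, 0.891 and 1.09 CPM in PC (log2 fold change 2.69 ± 0.27, adjusted p = 0.0027) and ppt_219807 at 9.38, 8.61 and 12.3 CPM in EC, against 1.94, 2.39 and 3.11 CPM in PC (log2 fold change 2.02 ± 0.25, adjusted p = 0.0041). For ppt_219807 the lowest EC library was well above the highest PC library. The other, ppt_219804, was under 2 CPM in every PC library and passed the level limit in EC libraries only, which set its direction. The AT-hook protein AHL21 (ppt_55129), a DNA-binding regulator, was at 21.1, 13.8 and 16.6 CPM in EC, against 5.13, 4.17 and 6.16 CPM in PC (log2 fold change 1.73 ± 0.23, adjusted p = 0.0044). SPL2 (ppt_119106), of the SQUAMOSA promoter-binding family that times phase changes in Arabidopsis, was at 3.73, 2.62 and 3.23 CPM in EC, against 0.603, 0.356 and 0.664 CPM in PC (log2 fold change 2.54 ± 0.35, adjusted p = 0.0047). Its PC levels were close to the limit of counting, under 1 CPM in every PC library. SPL2 thus passed the level limit in EC libraries only, which set its direction.

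Several NAC factors fell. CUP-SHAPED COTYLEDON 2 (CUC2, ppt_183182), a NAC factor that separates cotyledons and marks organ boundaries in Arabidopsis, was at 43.5, 42.3 and 31.6 CPM in EC, against 87.3, 95.9 and 67.3 CPM in PC (log2 fold change -1.09 ± 0.17, adjusted p = 0.0071). NAC100 (ppt_183181), a related NAC factor with the neighbouring identifier, was at 22.6, 22.4 and 15.3 CPM in EC, against 47.6, 57.7 and 36.4 CPM in PC (log2 fold change -1.23 ± 0.21, adjusted p = 0.0091). In both, library 3 was the lowest of each stage and the stages did not overlap. The fold change of CUC2 came just inside 2-fold without EC library 3 (-0.96) and without PC library 2 (-0.98), with adjusted p = 0.024 and 0.026. NAC32 (ppt_42141) was at 2.57, 2.65 and 2.62 CPM in EC, against 5.80, 8.88 and 6.49 CPM in PC (log2 fold change -1.43 ± 0.23, adjusted p = 0.0078), and its call was lost without EC library 1 and PC library 2 (adjusted p = 0.058) and in 1 fit of all 18 libraries (0.13). All 5 called among 50 tested hub transcription factors of the study were lower and 0 were higher, against 2.47% and 5.14% of all transcripts. Of the 5, 4 are NAC factors, and the median of the 50 was -0.40. The fourth, a match to NAC protein 1 (ppt_58155), was at 1.46, 1.76 and 1.21 CPM in EC, against 4.69, 4.35 and 2.42 CPM in PC (log2 fold change -1.37 ± 0.34, adjusted p = 0.029), a call lost without any 1 of EC libraries 1, 2 and 3 and PC libraries 1 and 2 (adjusted p between 0.056 and 0.1) or without EC library 1 and PC library 2 together (0.16). This transcript was under 2 CPM in every EC library and passed the level limit in PC libraries only, which set its direction. The fifth, ppt_132360, an unnamed protein, was at 6.90, 7.92 and 5.86 CPM in EC, against 11.5, 17.3 and 12.9 CPM in PC (log2 fold change -1.01 ± 0.21, adjusted p = 0.017), and lost its call without EC library 3 (adjusted p = 0.057), PC library 2 (0.053) or EC library 1 and PC library 2 together (0.091). In 1 fit of all 18 libraries ppt_132360 had no call either (adjusted p = 0.11).

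Growth regulators included an abundant transcript that fell. CYP78A141 (ppt_161397), a cytochrome P450 of the CYP78A family that promotes organ growth in Arabidopsis, was at 445, 478 and 426 CPM in EC, against 981, 1025 and 839 CPM in PC (log2 fold change -1.08 ± 0.11, adjusted p = 0.0027). The EC libraries lay close together and below all PC libraries, and 2 of the 5 tested transcripts of that name were called. A further family member, CYP78A4 (ppt_55036), was at 0.814, 1.94 and 1.41 CPM in EC, against 6.97, 6.92 and 9.18 CPM in PC (log2 fold change -2.44 ± 0.34, adjusted p = 0.0048). CYP78A4 was under 2 CPM in every EC library and passed the level limit in PC libraries only, which set its direction. Of 19 tested transcripts of growth and reproductive regulators, 4 were called lower and 0 higher, against 2.47% and 5.14% of all transcripts. Longifolia (ppt_107454), which in Arabidopsis promotes cell elongation, was at 122, 106 and 128 CPM in EC, against 66.8, 64.7 and 60.8 CPM in PC, a difference under 2-fold that passed at any fold (log2 fold change 0.89 ± 0.10, adjusted p = 0.0034). The light receptor phytochrome was higher, with ppt_102603 at 128, 113 and 139 CPM in EC, against 60.7, 59.5 and 67.6 CPM in PC (log2 fold change 1.02 ± 0.11, adjusted p = 0.0029) and ppt_102604 at 36.5, 32.2 and 44.04 CPM in EC, against 16.7, 16.6 and 20.7 CPM in PC (log2 fold change 1.06 ± 0.16, adjusted p = 0.0059). Both stood at the 2-fold limit: with library size alone they were at 0.93 and 0.97, and without EC library 3 at 0.95 and 0.93, though with adjusted p under 0.05 in each; ppt_102603 was at 1.00 without EC library 1 or PC library 1 and at 0.98 without PC library 2, just inside the limit, and at 0.97 without EC library 1 and PC library 2 together. The summed level of the light and plastid list was 451, 406 and 496 CPM in EC libraries 1 to 3, against 276, 275 and 308 CPM in PC. Its remaining transcripts had no call, 11 of the 16 tested having values below 0, with a list median of -0.30.

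**Figure D3:**
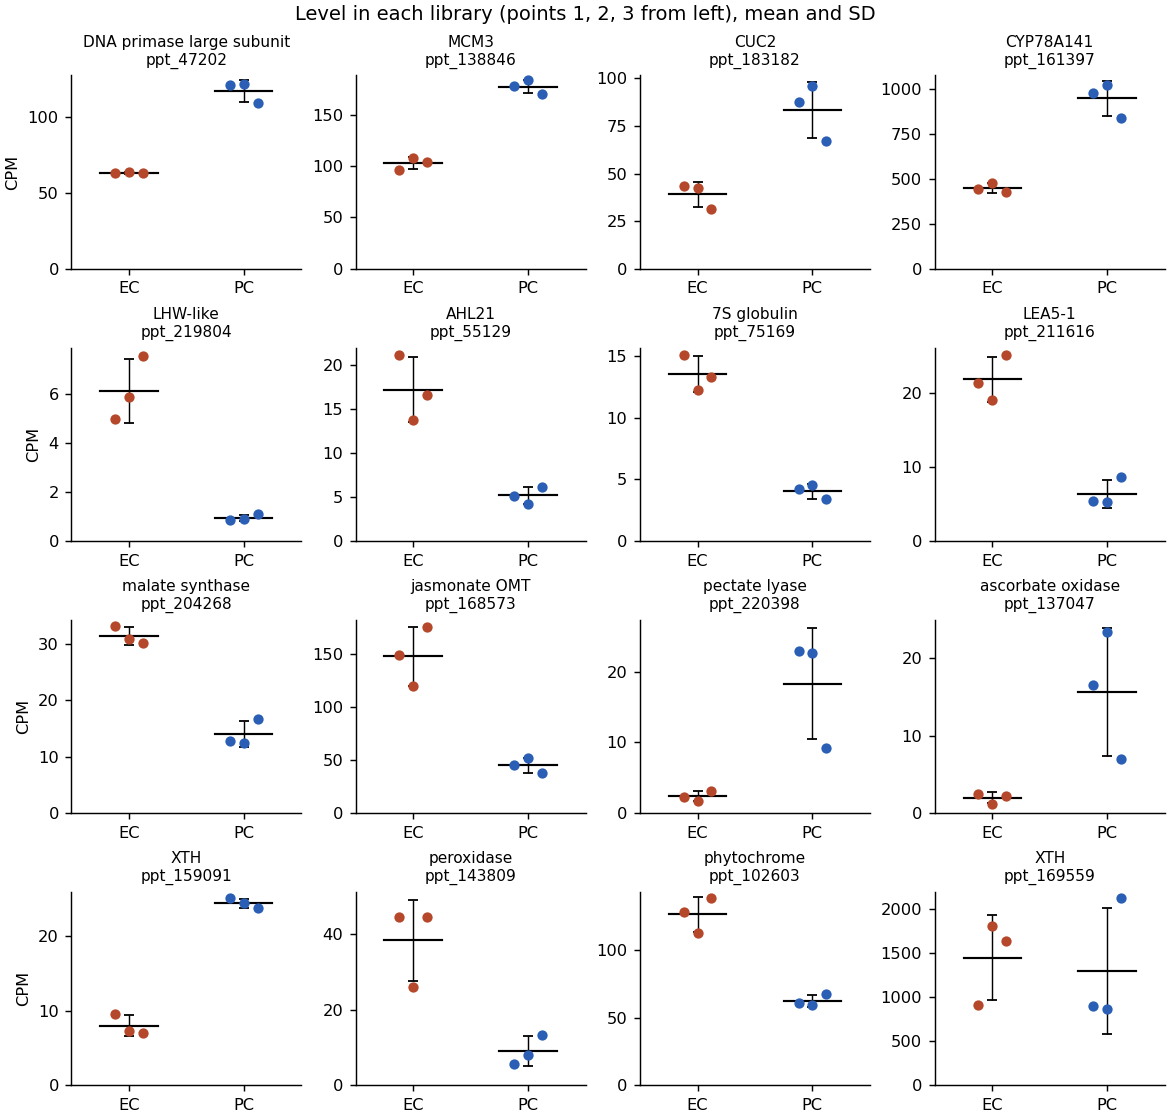
Level in CPM (vertical, from 0) of 16 named transcripts in EC libraries 1 to 3 (red, left) and PC libraries 1 to 3 (blue, right), each point a library in that order from left to right. The black bar is the mean and the whisker the SD (n = 3); OMT is O-methyltransferase, XTH xyloglucan endotransglucosylase/hydrolase and AHL21 the AT-hook protein. The stages do not overlap except in the abundant XTH ppt_169559 in the last panel, where EC library 1 and PC libraries 1 and 2 lie near 900 CPM and the other 3 between 1630 and 2119 CPM. For part of these transcripts the lack of overlap was a condition of their choice, and 40.0% of all tested transcripts show it.

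Part of the maturation genes were higher in EC. All 16 tested storage and oil body transcripts had values above 0 (median 0.74), 6 were called higher and 8 were higher at an adjusted p under 0.05, against 10.4% of all transcripts. These 16 carried 5 protein names, so the counts are of transcripts and not of genes. A 7S globulin (ppt_75169), a storage protein of seeds, was at 15.1, 12.2 and 13.3 CPM in EC, against 4.19, 4.56 and 3.38 CPM in PC (log2 fold change 1.74 ± 0.19, adjusted p = 0.0029). A vicilin-like storage protein (ppt_75171) was at 12.5, 10.5 and 11.97 CPM in EC, against 3.89, 3.60 and 2.17 CPM in PC (log2 fold change 1.86 ± 0.25, adjusted p = 0.0046). Caleosin (ppt_56102), which sits on the surface of oil bodies, was at 118, 84.5 and 87.02 CPM in EC, against 55, 66.7 and 55.2 CPM in PC, below 2-fold (log2 fold change 0.71 ± 0.15, adjusted p = 0.019). For globulin and vicilin every EC library was far above every PC library, and a lack of overlap was a condition of their choice. Their identifiers are close, and whether they are variants of 1 gene was not tested. Within each stage the summed list was highest in the library that set that end of the second component: 552, 384 and 359.6 CPM in EC libraries 1 to 3, against 237, 313 and 220.1 CPM in PC, with PC library 2 the highest of PC. The 8 became 6 without EC library 1 and PC library 2 and 5 without PC library 1.

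Of 48 tested LEA and seed maturation transcripts, 6 were called higher and 1 lower, against 5.14% and 2.47% of all transcripts. At an adjusted p under 0.05, 16 were higher (list median 0.41), against 10.4% of all. The 48 carried 15 protein names. All 4 transcripts of LEA5-1 were called higher, led by ppt_211616 at 21.3, 19.1 and 25.04 CPM in EC, against 5.36, 5.20 and 8.54 CPM in PC (log2 fold change 1.77 ± 0.23, adjusted p = 0.0043). LEA4-2 (ppt_36857) was at 22.5, 21.8 and 18.2 CPM in EC, against 5.63, 9.34 and 8.97 CPM in PC (log2 fold change 1.38 ± 0.22, adjusted p = 0.0067). LEA1-2 (ppt_198829) was at 96.8, 95.5 and 73.2 CPM in EC, against 50.2, 44.9 and 47.9 CPM in PC, short of 2-fold (log2 fold change 0.89 ± 0.13, adjusted p = 0.0055). An abundant LEA transcript did not pass the test: ppt_200866, among the 5 most abundant with an informative name, was at 1098, 1235 and 1092 CPM in EC, against 1186, 1090 and 1031 CPM in PC (log2 fold change 0.05 ± 0.10, adjusted p = 0.78), with overlapping stages. The 1 lower LEA transcript, LEA7-1 (ppt_251913), chosen after its values were seen, was at 6.30, 6.85 and 7.76 CPM in EC, against 16.1, 20.2 and 11.3 CPM in PC (log2 fold change -1.18 ± 0.23, adjusted p = 0.013), and did not pass without PC library 1. The 16 higher transcripts became 10 without EC library 1, 9 without EC library 2, 9 without PC library 1 and 8 without EC library 1 and PC library 2.

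Malate synthase, the glyoxylate cycle enzyme that lets seeds turn stored lipid into sugar, was higher in all 10 of its transcripts at an adjusted p under 0.05, and 8 were called. Summed over the 10, it was at 239, 225 and 221 CPM in EC libraries 1 to 3, against 97.4, 94.8 and 128 CPM in PC. A single one, ppt_204268, was at 33.3, 30.99 and 30.2 CPM in EC, against 12.9, 12.4 and 16.7 CPM in PC (log2 fold change 1.17 ± 0.15, adjusted p = 0.0041). The groups were far apart, with the lowest EC sum well above the highest PC sum. It made up most of the calls in the list of carbon reserves and sugars. There 10 of 37 tested transcripts were called higher and 2 lower, against 5.14% and 2.47% of all transcripts. At any fold 13 were higher and 6 lower; without PC library 1 these became 8 and 2, and without EC library 1 and PC library 2 they became 5 and 1. The 6 lower ones also became 2 without EC library 1, EC library 3 or PC library 2 and 3 without PC library 3. Sucrose synthase (ppt_146786), which splits sucrose in sink tissue, was at 47.4, 47.5 and 45.02 CPM in EC, against 72.4, 70.2 and 66.3 CPM in PC (log2 fold change -0.58 ± 0.09, adjusted p = 0.0064). All 4 tested transcripts of its name had values below 0, and 1 passed at an adjusted p under 0.05. Inositol oxygenase (ppt_73953), which feeds sugar acids to cell wall synthesis, was at 1.2, 1.16 and 1.21 CPM in EC, against 4.46, 3.96 and 2.96 CPM in PC (log2 fold change -1.67 ± 0.27, adjusted p = 0.0078), a call lost without EC library 1 and PC library 2 (adjusted p = 0.065). Inositol oxygenase was under 2 CPM in every EC library and passed the level limit in PC libraries only, which set its direction. In the nitrogen and polyamine list 3 of 26 were called lower and 0 higher, and all 3 were asparagine synthetase, which makes the nitrogen carrier asparagine. Only 3 of its 10 transcripts were tested, and these passed the level limit in PC libraries only, so their direction was set by the limit. Its transcript ppt_140063 was at 1.24, 0.735 and 0.635 CPM in EC, against 4.89, 5.17 and 4.11 CPM in PC (log2 fold change -2.46 ± 0.33, adjusted p = 0.0046), a low level in both stages. Glutamine dumper 4 (ppt_217398), which acts in amino acid export in Arabidopsis, was at 27.1, 24.3 and 18.8 CPM in EC, against 15.5, 16.2 and 13.5 CPM in PC (log2 fold change 0.63 ± 0.17, adjusted p = 0.035).

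Some cell wall enzymes fell by large factors while the cell wall list as a whole was balanced. Of its 44 tested transcripts, 7 were called lower and 1 higher, against 2.47% and 5.14% of all transcripts. Values lay above 0 in 23 and below 0 in 21, and the median was 0.015. Pectate lyase (ppt_220398), which cuts pectin, was at 2.27, 1.73 and 3.12 CPM in EC, against 22.99, 22.7 and 9.24 CPM in PC (log2 fold change -2.94 ± 0.40, adjusted p = 0.0047). L-ascorbate oxidase (ppt_137047), a copper enzyme of the cell wall space, was at 2.48, 1.21 and 2.25 CPM in EC, against 16.5, 23.4 and 6.97 CPM in PC (log2 fold change -2.99 ± 0.48, adjusted p = 0.0073). In both, PC library 3 was far below the other PC libraries and still above every EC library. A multicopper oxidase-like protein (ppt_252133) was at 11.7, 12.3 and 10.4 CPM in EC, against 52.2, 69.2 and 33.3 CPM in PC (log2 fold change -2.17 ± 0.25, adjusted p = 0.0034). Uclacyanin 1 (ppt_62910), a copper protein, was at 3.90, 4.46 and 2.94 CPM in EC, against 18.3, 19.7 and 9.84 CPM in PC (log2 fold change -2.08 ± 0.30, adjusted p = 0.0057), with PC library 3 again the lowest of PC. The xyloglucan endotransglucosylase/hydrolases (XTH), which cut and rejoin wall xyloglucan, had 16 tested transcripts under 1 name, 14 of them with values above 0 and 2 below (median 0.25). At an adjusted p under 0.05, 1 was higher, within 2-fold, and the 2 below 0 were called lower. XTH ppt_159091 was at 9.56, 7.29 and 6.98 CPM in EC, against 25.1, 24.4 and 23.8 CPM in PC (log2 fold change -1.62 ± 0.16, adjusted p = 0.0026) and XTH ppt_111493 at 4.03, 3.65 and 3.46 CPM in EC, against 11.5, 14.4 and 11.3 CPM in PC (log2 fold change -1.74 ± 0.18, adjusted p = 0.0028). The most abundant transcript with an informative name, XTH ppt_169559, was at 904, 1808 and 1630 CPM in EC, against 899, 858 and 2119 CPM in PC (log2 fold change 0.16 ± 0.39, adjusted p = 0.81), low in EC library 1 and PC library 2 alike, and the stages overlapped. Both lower XTH calls were lost when all 18 libraries shared 1 fit (adjusted p = 0.066 and 0.084). An auxin-induced cell wall protein (ppt_72823), all 3 transcripts of which were called lower, was at 5.14, 6.11 and 5.71 CPM in EC, against 18.9, 29.01 and 13.7 CPM in PC (log2 fold change -1.86 ± 0.27, adjusted p = 0.0059). An exostosin-like protein (ppt_250365), of a glycosyltransferase family, was at 3.13, 3.96 and 6.20 CPM in EC, against 10.5, 10.7 and 11.9 CPM in PC (log2 fold change -1.31 ± 0.26, adjusted p = 0.015), without a call when EC library 1 and PC library 2 were left out (adjusted p = 0.07). Its call was also lost in the fit of all 18 libraries (adjusted p = 0.24) and of the 15 without the cotyledonary zygotic stage (0.1). The 1 called higher was Endoglucanase 18 (ppt_237111), a cellulose-cutting enzyme, named after its values were seen, at 12.6, 9.74 and 7.59 CPM in EC, against 4.29, 4.92 and 2.48 CPM in PC (log2 fold change 1.35 ± 0.31, adjusted p = 0.022). Of 4 tested transcripts of its name it alone was called, and 2 were below 0 (median 0.06). Without EC library 2 or PC library 1, 0 cell wall transcripts were higher at an adjusted p under 0.05.

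Among stress and defence genes, peroxidases held the higher calls and pathogenesis-related genes lower ones. Of 32 tested transcripts of peroxidases and redox enzymes, 4 were called higher and 3 lower, against 5.14% and 2.47% of all transcripts. The 4 were all peroxidases, which oxidise phenolics in the wall, and the 3 were a glutaredoxin and the pair of transcripts matched to L-ascorbate oxidase of cotton. Not all peroxidases moved. Of 6 transcripts matched to a peroxidase of *Oryza meridionalis* 0 passed at any fold (median 0.25), and 3 matched to Peroxidase 25 were below 0 without passing (median -0.41). Of 3 sharing the name of ppt_194962, 1 passed (median 0.09). Of 3 further transcripts matched to ascorbate oxidase of strawberry 0 passed at any fold (median -0.18). Peroxidase ppt_143809 was at 44.6, 25.9 and 44.4 CPM in EC, against 5.43, 8.02 and 13.3 CPM in PC (log2 fold change 2.10 ± 0.35, adjusted p = 0.008), without a call when EC library 1 and PC library 2 were left out (adjusted p = 0.069). Peroxidase 61 (ppt_48654) was at 27.4, 23.8 and 32.2 CPM in EC, against 8.51, 9.27 and 10.4 CPM in PC (log2 fold change 1.56 ± 0.16, adjusted p = 0.0026), and the peroxidase ppt_194962 was at 32.1, 36.3 and 24.8 CPM in EC, against 14.9, 13.2 and 10.5 CPM in PC (log2 fold change 1.27 ± 0.19, adjusted p = 0.0059). Every EC library was above every PC library in each, which was a condition of choice for ppt_143809 and ppt_48654. Pathogenesis-related transcripts had the lowest list median, -0.66, with 6 of 25 tested called lower and 0 higher, against 2.47% and 5.14% of all transcripts; 70 of the list's 95 members were under the level limit. The antimicrobial peptide Defensin-1 had 3 of 4 transcripts called lower, as ppt_220686 at 3.38, 7.56 and 4.47 CPM in EC, against 12, 13.4 and 16.9 CPM in PC (log2 fold change -1.45 ± 0.31, adjusted p = 0.017) and ppt_220688 at 3.17, 5.46 and 3.66 CPM in EC, against 10.2, 8.38 and 11.3 CPM in PC (log2 fold change -1.28 ± 0.25, adjusted p = 0.014). PR-1 (ppt_204058), a secreted defence marker, was at 2.91, 2.20 and 1.88 CPM in EC, against 4.89, 5.42 and 6.25 CPM in PC (log2 fold change -1.25 ± 0.26, adjusted p = 0.016), and a thaumatin-like protein (ppt_53318) at 1.67, 1.76 and 2.48 CPM in EC, against 6.70, 3.56 and 3.87 CPM in PC (log2 fold change -1.25 ± 0.33, adjusted p = 0.037). These levels are low and the calls did not hold with fewer libraries: the list's 6 became 1 without EC library 3, 3 without PC library 1 and 0 without both EC library 1 and PC library 2. Singly, ppt_220686 had no call without EC library 3 (adjusted p = 0.063), ppt_220688 none without EC library 3 (0.052) or PC library 1 (0.053), PR-1 none without EC library 2 or EC library 3 (0.051 each), and ppt_53318 none without EC library 1 (0.099), EC library 2 (0.11), EC library 3 (0.058), PC library 1 (0.12) or PC library 2 (0.052), nor with the replicate number as a block (0.077). Without EC library 1 and PC library 2 together the adjusted p was 0.076 for ppt_220686, 0.055 for ppt_220688, 0.054 for PR-1 and 0.11 for ppt_53318. With all 18 libraries in 1 fit, ppt_220686 (adjusted p = 0.083) and ppt_220688 (0.14) had no call either. Of 39 tested resistance proteins 1 was called lower, ppt_222098 at 2.57, 3.67 and 5.13 CPM in EC, against 6.84, 11.98 and 8.88 CPM in PC (log2 fold change -1.27 ± 0.31, adjusted p = 0.029), and not without EC library 1 (adjusted p = 0.065), EC library 2 (0.08), PC library 2 (0.093) or EC library 1 and PC library 2 together (0.14). A share of 1 in 39 is about that of all transcripts called lower, 2.47%. Lipoxygenase 2, which starts the oxidation of fatty acids toward jasmonate, was lower in all 5 tested transcripts, as ppt_42993 at 5.57, 5.59 and 4.93 CPM in EC, against 15.02, 17.6 and 15.2 CPM in PC (log2 fold change -1.57 ± 0.16, adjusted p = 0.0026).

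Among hormone and signalling genes, 1 name stood for 6 calls. Putative jasmonate O-methyltransferase, which forms methyl jasmonate, was called higher in all 6 transcripts, with a sum of 698, 528 and 734 CPM in EC libraries 1 to 3, against 206, 246 and 164 CPM in PC. The best supported of these, ppt_168573, was at 149, 120.1 and 176 CPM in EC, against 45.7, 51.97 and 37.4 CPM in PC (log2 fold change 1.72 ± 0.17, adjusted p = 0.0027). The stages did not overlap, which was a condition of its choice. Among 11 auxin transcripts 1 was called, against 7.62% of all transcripts. It was an auxin efflux carrier (ppt_257564), which moves auxin out of cells, at 9.81, 6.95 and 8.80 CPM in EC, against 2.95, 2.57 and 4.77 CPM in PC (log2 fold change 1.31 ± 0.28, adjusted p = 0.019). That call was lost without EC library 1 (adjusted p = 0.062), EC library 3 (0.059), PC library 1 (0.074), PC library 2 (0.059) or EC library 1 and PC library 2 together (0.12), and with all 18 libraries in 1 fit (0.061). A receptor kinase matching CLAVATA1 (ppt_283077), which limits the shoot meristem in Arabidopsis, was at 47.8, 36.9 and 39.6 CPM in EC, against 17.1, 18.1 and 14.2 CPM in PC (log2 fold change 1.33 ± 0.15, adjusted p = 0.003). A rapid alkalinization factor (ppt_155049), a secreted signal peptide, was at 8.27, 6.09 and 5.60 CPM in EC, against 2.08, 2.00 and 0.785 CPM in PC (log2 fold change 2.04 ± 0.39, adjusted p = 0.012), and had no call without EC library 1 and PC library 2 (adjusted p = 0.07). A CHASE-domain histidine kinase (ppt_230276), of the cytokinin receptor family, was at 82.8, 108 and 94.3 CPM in EC, against 157, 150.3 and 146 CPM in PC, under 2-fold (log2 fold change -0.67 ± 0.11, adjusted p = 0.0088). Of 12 ethylene transcripts 0 were called (2 lower at an adjusted p under 0.05), with an ERF1-like factor (ppt_109022) at 15.3, 16.8 and 16.3 CPM in EC, against 25.5, 22.1 and 23.6 CPM in PC (log2 fold change -0.56 ± 0.12, adjusted p = 0.018) and ERF5 (ppt_109018) at 7.71, 6.32 and 5.54 CPM in EC, against 8.58, 11.2 and 12.8 CPM in PC (log2 fold change -0.74 ± 0.22, adjusted p = 0.051). The 2 became 0 without EC library 3 or PC library 1. Of 11 gibberellin transcripts 1 was called, against 7.62% of all transcripts. It was a GID2-like F-box protein (ppt_151334), which in rice marks growth repressors for breakdown, at 4.41, 3.60 and 2.71 CPM in EC, against 6.70, 10.6 and 6.04 CPM in PC (log2 fold change -1.12 ± 0.29, adjusted p = 0.035). It had no call without EC library 2 (adjusted p = 0.088), EC library 3 (0.1), PC library 1 (0.074), PC library 2 (0.11) or EC library 1 and PC library 2 together (0.094), nor with all 18 libraries in 1 fit (0.33). A receptor kinase of Scots pine (ppt_196002) and the transporter ABCG22 (ppt_239114) were also among the larger rises, at 11.9, 10.1 and 15.8 CPM in EC, against 5.26, 4.78 and 4.71 CPM in PC (log2 fold change 1.36 ± 0.21, adjusted p = 0.0064) and at 12.9, 9.39 and 11.4 CPM in EC, against 3.96, 4.63 and 3.23 CPM in PC (log2 fold change 1.51 ± 0.22, adjusted p = 0.0054). All 5 tested ABCG22 transcripts were called higher. A UDP-glycosyltransferase (ppt_66862), which adds sugars to small molecules, and aldose 1-epimerase (ppt_93791), which converts sugar forms, were among the larger falls. The glycosyltransferase was at 4.46, 4.01 and 5.37 CPM in EC, against 17.8, 19.1 and 11.7 CPM in PC (log2 fold change -1.81 ± 0.23, adjusted p = 0.0042) and the epimerase at 36.5, 34.5 and 28.96 CPM in EC, against 90.2, 92.1 and 52.7 CPM in PC (log2 fold change -1.23 ± 0.22, adjusted p = 0.0094), the second without a call when EC library 1 and PC library 2 were left out (adjusted p = 0.059).

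Among lists of specialised metabolism, terpenoid transcripts had a median of 0.64, and 11 of 24 tested were higher and 1 lower at an adjusted p under 0.05, though 2 passed 2-fold. The 24 carried 8 protein names. HMG-CoA reductase (ppt_120193), the control point of the mevalonate route, was at 106, 109.7 and 105 CPM in EC, against 54.9, 58.9 and 73.6 CPM in PC (log2 fold change 0.77 ± 0.12, adjusted p = 0.0072). All 6 tested transcripts of its name had values above 0, and 1 passed at an adjusted p under 0.05. Alpha-bisabolene synthase (ppt_205266), which makes a sesquiterpene of conifer resin, was at 100.2, 85.1 and 88.03 CPM in EC, against 55.7, 65.8 and 51.9 CPM in PC (log2 fold change 0.66 ± 0.12, adjusted p = 0.011), while isopimaradiene synthase (ppt_132647), which makes a diterpene resin precursor, was at 46.5, 64.97 and 56.97 CPM in EC, against 82.8, 88.1 and 84.7 CPM in PC (log2 fold change -0.60 ± 0.13, adjusted p = 0.019). The 3 genes did not overlap between stages, and the last ran against the first pair. The 11 became 5 without EC library 1, 6 without EC library 3, 3 without PC library 1 and 5 without EC library 1 and PC library 2. In the phenylalanine, lignin and flavonoid list 3 of 30 were higher and 5 lower at an adjusted p under 0.05, against 10.4% and 8.45% of all transcripts, and the 3 became 1 without EC library 1, EC library 3 or PC library 3 and 0 without PC library 1. Chalcone-flavanone isomerase (ppt_184798), a flavonoid enzyme, was at 55.8, 50.2 and 58.9 CPM in EC, against 80.1, 97.9 and 89.9 CPM in PC (log2 fold change -0.70 ± 0.11, adjusted p = 0.0073). Arogenate dehydratase (ppt_96282), which makes phenylalanine, was at 37.2, 32.9 and 40.1 CPM in EC, against 23.6, 25.7 and 21.98 CPM in PC (log2 fold change 0.63 ± 0.12, adjusted p = 0.013), and 4-coumarate-CoA ligase (ppt_91939), which activates lignin precursors, at 12.04, 15.3 and 14.2 CPM in EC, against 23.7, 24.1 and 27.9 CPM in PC (log2 fold change -0.86 ± 0.14, adjusted p = 0.0077). The lipid and cuticle list had a median of 0.48, with 5 of 31 higher and 1 lower at an adjusted p under 0.05. The lower one was patatin, a lipid hydrolase (ppt_176758), at 88.6, 94.9 and 64.9 CPM in EC, against 155, 148 and 128 CPM in PC (log2 fold change -0.80 ± 0.15, adjusted p = 0.013). The 5 higher ones became 13 without PC library 3 and 0 without EC library 1, PC library 1 or PC library 2, and 2 and 1 without EC libraries 2 and 3.

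The study's hub genes, the most connected genes of its co-expression modules, differed by module. In the yellow module 40 of 221 hubs were tested and 30 were called lower and 0 higher. Of these 40, 14 passed the level limit in PC libraries only, so that their direction was set by the limit, and of the other 26 the called were 16. In the brown module 9 of 207 hubs were tested and 6 called lower, but 5 of the 9 passed in PC libraries only, and 2 of the other 4 were called. The green module had 0 calls but 38 of 100 lower at an adjusted p under 0.05 (median -0.46), and the blue module 11 lower and 1 higher of 504 (median -0.14), shares no larger than the 2.47% and 5.14% of all transcripts. The black module, followed in full, had 120 of 502 tested transcripts called higher and 0 lower (median 0.72). How many of these passed the level limit in EC libraries only was not counted, so the part the limit played there is not known. Modules were built on these libraries, so their directions are descriptions.

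Among transcripts with no name in the sources, the 2 largest changes per direction with no overlap and at least 10 CPM in the higher stage were as follows. The transcript ppt_88413 was at 24.4, 29.6 and 15.3 CPM in EC, against 2.25, 1.85 and 2.57 CPM in PC (log2 fold change 3.37 ± 0.28, adjusted p = 0.0026) and ppt_61440 at 16.8, 5.43 and 8.22 CPM in EC, against 1.27, 0.927 and 0.966 CPM in PC (log2 fold change 3.25 ± 0.45, adjusted p = 0.0048). The EC libraries of ppt_61440 spread from 5.43 to 16.8 CPM, all above PC. It was under 2 CPM in every PC library and passed the level limit in EC libraries only, which set its direction. In the other direction, ppt_51805 was at 1.24, 0.814 and 0.49 CPM in EC, against 12.2, 17.2 and 4.56 CPM in PC (log2 fold change -3.76 ± 0.56, adjusted p = 0.0059) and ppt_20983 at 4.07, 8.45 and 13.1 CPM in EC, against 98.7, 88.5 and 68.5 CPM in PC (log2 fold change -3.31 ± 0.38, adjusted p = 0.0033). Here ppt_51805 was under 2 CPM in every EC library and passed the level limit in PC libraries only, which set its direction. An abundant leucine-rich repeat receptor kinase (ppt_136440) did not pass the test, at 559.6, 761 and 748 CPM in EC, against 784, 741 and 904 CPM in PC (log2 fold change -0.23 ± 0.15, adjusted p = 0.31).

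The zygotic step was set beside the first somatic step by testing the difference between the log2 fold change of EC over PC and that of ES2 over ES1, in 12 libraries. The somatic stages are matched by order only, ES2 being called pre-cotyledonary by the study, and embryo type cannot be told apart from genotype and culture medium. The difference was called for 1107 of 21036 transcripts (5.26%), 703 higher (3.34%) and 404 lower (1.92%) in the zygotic step. With library size alone the split was 1064 and 276. Between ES2 and ES1 themselves 8.36% of transcripts were called higher and 9.26% lower. Of the 1602 transcripts called between EC and PC, 292 also had a called difference, and 23 were called in the opposite direction between ES2 and ES1. By list, the difference was called for 2 of 66 replication transcripts, 1 of 62 cell cycle, 1 of 48 LEA and 0 of 16 storage and oil body transcripts.

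Genes that moved differently included asparagine synthetase (ppt_140063), which passed the level limit in PC but not in EC libraries, with a log2 fold change of -2.46 in the zygotic and 0.96 in the somatic step, a difference of -3.43 ± 0.23 (adjusted p = 3.4e-05). Jasmonate O-methyltransferase (ppt_168573) was at 1.72 in the zygotic and 0.27 in the somatic step (difference 1.46 ± 0.20, adjusted p = 0.0011), and all 6 of its transcripts had a called difference. For the CLAVATA1-like kinase (ppt_283077) the values were 1.33 and -0.05 (difference 1.39 ± 0.24, adjusted p = 0.0037). Of 12 ethylene transcripts 6 had a called difference, all lower in the zygotic step, led by the ERF1-like factor ppt_109022 at -0.56 and 1.08 (difference -1.62 ± 0.20, adjusted p = 0.00055). CUC2 (ppt_183182) was at -1.09 and -0.61, for which the difference of -0.47 did not pass (adjusted p = 0.22), which does not show that the steps are alike.

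**Figure D4:**
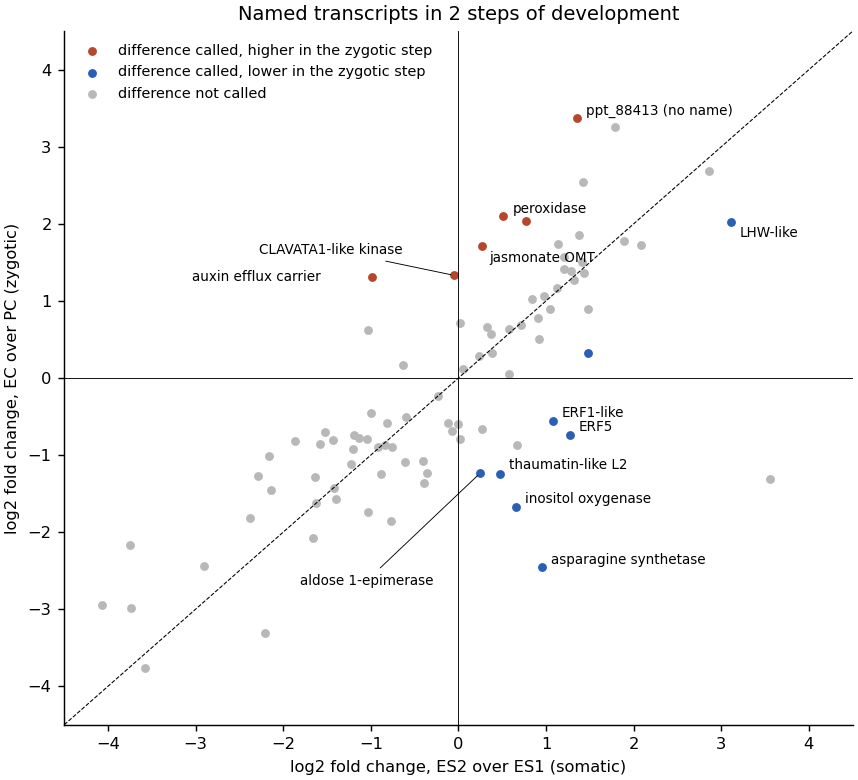
Log2 fold change of EC over PC in zygotic embryos (vertical) against that of ES2 over ES1 in somatic embryos (horizontal) for 90 named transcripts, each a point, with a dashed line where both are equal. Red and blue mark a called difference between the steps (higher or lower in the zygotic step), grey none. Asparagine synthetase lies lowest among the blue points, at -2.46 and 0.96, and the unnamed ppt_88413 highest among the red, at 3.37 and 1.35. Asparagine synthetase and inositol oxygenase passed the level limit in PC libraries only, so their fall in the zygotic step was set by the limit.

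Levels at the cotyledonary zygotic stage (C), scaled over all 18 libraries and not tested here, are given for 5 of these genes. CUC2 (ppt_183182) averaged 57.5 CPM at PC, 27.6 CPM at EC, then 1.71 CPM at C. The LHW-like ppt_219807 averaged 1.71 CPM at PC, 7.11 CPM at EC, then 47.2 CPM at C. The 7S globulin ppt_75169 averaged 2.79 CPM at PC, 9.55 CPM at EC, then 101 CPM at C, and MCM3 (ppt_138846) averaged 122 CPM at PC, 72.5 CPM at EC, then 3.48 CPM at C. Peroxidase ppt_143809 averaged 6.14 CPM at PC, 26.99 CPM at EC, then 6.00 CPM at C. Only 70.0% to 70.5% of the counts of the C libraries fell in the 21036 transcripts, against 99.6% to 99.7% in EC and PC, so the scale of C is uncertain. By library size over the tested transcripts the C averages were 0.718 CPM for CUC2, 19.8 CPM for the LHW-like transcript, 42.2 CPM for the globulin, 1.46 CPM for MCM3 and 2.52 CPM for the peroxidase, in the same order relative to EC.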

How the data were processed

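Poly(A) RNA of embryos was sequenced and the deposited file holds raw read counts per transcript for 18 libraries. The authors trimmed reads with SeqTrimBB, built the reference transcriptome with Trinity, CD-HIT-EST and Mira, mapped with BWA MEM and counted with sam2counts; bcl2fastq is also in the submitters' processing notes, with no version (not given in the sources used here). The handling of reads that map to several transcripts is not stated, so levels of transcripts with the same name are uncertain singly. Sums are given for some of these names only.

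Here transcripts above 2 CPM in at least 3 of the 6 EC and PC libraries were kept (column sums as totals, 24726220 to 38189316 counts). The kept counts were scaled by TMM and tested in those 6 libraries with the quasi-likelihood F-test of edgeR 4.0.16 (R 4.3.3) on stage alone. P-values were Benjamini-Hochberg adjusted over all 21036 transcripts, and calls had to pass both 0.05 for adjusted p and 1 for the absolute log2 fold change. Levels are TMM-scaled CPM and errors of fold changes are standard errors from the F statistic. The difference between steps was a contrast in 12 libraries over the same transcripts. Scripts were tested on simulated data.

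Members and gene lists were chosen with earlier results of these data known. Named transcripts followed a rule: per direction the 12 largest called changes with an informative name, at least 10 CPM in the higher stage and no overlap, 1 per name; up to 3 members per list by lowest p; called hub transcription factors (up to 12); the 5 most abundant with an informative name; and 2 without a name per direction. Others are said to be chosen after their values were seen, or illustrate a list already described. Alternatives were DESeq2 1.42.0, its size factors, library size, 3 filters, other tests and thresholds, other sets of libraries in the fit, the replicate number as a block, counts summed by name, and each library left out.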

Additional observations from a re-analysis of the deposited data

Results flagged for a closer look

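The step EC against PC differed from the step ES2 against ES1, by a test of the difference itself (edgeR's quasi-likelihood F-test, Benjamini-Hochberg adjusted), in 1107 transcripts. Embryo type cannot be told apart from genotype and culture in all of them. Among the named transcripts, the log2 difference between the steps was -3.43 ± 0.23 for asparagine synthetase (ppt_140063, adjusted p = 3.4e-05), -2.31 ± 0.22 for inositol oxygenase (ppt_73953, adjusted p = 0.00012) and -1.13 ± 0.25 for the cationic amino acid transporter ppt_202096 (adjusted p = 0.017). Asparagine synthetase and inositol oxygenase passed the level limit in PC libraries only, so their fall in the zygotic step was set by the limit. Of the 3 named ethylene factors, ERF012 (ppt_3095) had a difference that did not pass (1.07 ± 0.36, adjusted p = 0.092), and the others were lower in the zygotic step, ppt_109018 by a difference of -1.99 ± 0.42 (adjusted p = 0.012) and ppt_109022 by -1.62 ± 0.20 (adjusted p = 0.00055).

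A thaumatin-like protein (ppt_53318) had a difference of -1.70 ± 0.31 (adjusted p = 0.006) and aldose 1-epimerase (ppt_93791) one of -1.47 ± 0.28 (adjusted p = 0.0079). The LHW-like factor ppt_219807 rose in both steps, and by less in the zygotic one (difference -1.07 ± 0.28, adjusted p = 0.036). Higher in the zygotic step were the auxin efflux carrier ppt_257564 (2.31 ± 0.51, adjusted p = 0.016), the unnamed ppt_88413 (2.03 ± 0.32, adjusted p = 0.0024), peroxidase ppt_143809 (1.60 ± 0.41, adjusted p = 0.03), jasmonate O-methyltransferase ppt_168573 (1.46 ± 0.20, adjusted p = 0.0011), the CLAVATA1-like kinase ppt_283077 (1.39 ± 0.24, adjusted p = 0.0037) and the rapid alkalinization factor ppt_155049 (1.28 ± 0.34, adjusted p = 0.038).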

How the results depend on the processing

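Of 1602 calls between EC and PC (1082 higher, 520 lower), 0 changed sign under any alternative. DESeq2's size factors, library size alone, other level filters, the DESeq2 test, edgeR's likelihood ratio test, other sets of libraries and summing by name gave 1450 to 1826 calls. With library size alone the split was 911 higher and 667 lower (57.7% higher), and with all 18 libraries in 1 fit 1074 and 376 (74.1% higher). A test against a fold of 1.5 left 695 (488 higher, 207 lower), an adjusted p under 0.01 left 794 (554 and 240), and no fold threshold gave 3957 (2179 and 1778). Leaving out 1 library gave 1032 to 1743 calls, 710 to 1152 higher and 322 to 591 lower; the lowest counts were without PC library 1 (1032, 710 and 322), and without PC library 2 the lower calls were 342. Leaving out EC library 1 and PC library 2 together, an alternative chosen after seeing the data, gave 728 (518 and 210). Calls in the gene lists and hub genes, 132 in the main setting, were 83 to 156 with 1 library left out, 83 without PC library 1, and 65 without both.

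The 1107 differences between steps (703 higher, 404 lower) became 681 with all 18 libraries (210 lower), 1064 higher and 276 lower with library size alone, and 859 to 1220, with 546 to 848 higher and 282 to 419 lower, with 1 library left out. Of 51 named calls, 32 kept their call under every alternative run other than the joint omission; summed counts were not run for single named transcripts. Replicate numbers did not pair the libraries: deviations from the stage means correlated at -0.14, -0.30 and 0.34 for numbers 1 to 3. With the replicate number as a block there were 1443 calls (959 and 484, 1364 shared), 120 in the lists, and 1 named call was lost, ppt_53318 (adjusted p = 0.077). The 3 libraries per stage that may be technical repeats limit small changes of low transcripts most.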

Other observations

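Outside the comparisons above, families sharing a name gave further values. NFYA4, a subunit of the NF-Y transcription factor, had 8 of 9 tested transcripts lower in EC at an adjusted p under 0.05 and 0 called, with a summed level of 252, 268 and 240.2 CPM in EC libraries 1 to 3, against 456, 444 and 374 CPM in PC. SPL3 (ppt_239799), of the same family as SPL2, was at 47.1, 36.9 and 28.9 CPM in EC libraries 1 to 3, against 20.4, 20.1 and 15.8 CPM in PC (log2 fold change 1.00 ± 0.20, adjusted p = 0.013). These were chosen after their values were seen.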
